A study of Mus musculus with 2 samples.

Results

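Dendritic cells marked by Ccr7, Fscn1 and Ccl22 made up 127 of the 4495 immune cells kept here from MC38 tumours, with 31 of 1174 cells in the control library and 96 of 3321 in the anti-PD-1 library. MC38 is a mouse colon carcinoma line, and it was implanted in the skin of C57BL/6J mice at 4 sites per animal. After 7 days of growth the tumours were injected with either a control or an antibody against the T-cell receptor PD-1 (200 µg per mouse per day), and they were collected on day 10. Viable cells bearing CD45, a surface protein of blood-derived cells, were sorted, and their RNA was read from the 3' end in droplets as unique molecular identifiers (UMIs), which count transcript molecules. Each treatment was represented by 1 library, all mice carried the tumour, and how many mice went into a library is not stated in the labels. Every difference below is therefore between 2 libraries, no test across animals can be made, and the 95% intervals cover counting error only.

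Dendritic cells take up antigen in a tissue, and on maturation they switch from uptake to presentation and leave for the draining lymph node. CCR7, the receptor for the lymphatic chemokines CCL19 and CCL21, guides that movement, and fascin (Fscn1) bundles the actin of the long protrusions of mature cells. CCL22, a ligand of the receptor CCR4, attracts regulatory and other T cells. In tumours, cells of this kind are known for carrying co-stimulatory molecules, interleukin 12 and inhibitory ligands such as PD-L1 together.

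A cell was a member when it had at least 3 raw UMIs summed over Ccr7, Fscn1 and Ccl22, no UMI of Cd3d, Cd3e or Cd3g and fewer than 3 UMIs of C1qa, C1qb and C1qc, among barcodes with at least 1000 UMIs and at most 10% mitochondrial UMIs. The cells were thus chosen by measured UMIs, so the levels of the 3 genes and every contrast with other dendritic cells are given as descriptions. All 3 genes were present in 21 control and 59 anti-PD-1 members, 2 of them in 3 and 30, and a single gene in 7 and 7. The summed rule genes had a median of 25 UMIs in control members (3 to 91) and 25.5 in anti-PD-1 members (3 to 272). Just inside the threshold, 3 control and 5 anti-PD-1 members had exactly 3 UMIs, and just outside it 3 and 4 cells had exactly 2. Of the cells that reached 3 UMIs, a Cd3 UMI removed 4 of 37 in control and 28 of 125 in anti-PD-1, and C1q UMIs alone removed 2 and 1.

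In control, 2.64% of cells were members (exact binomial interval 1.80 to 3.73). In anti-PD-1 the share was 2.89% (2.35 to 3.52). The ratio of the 2 shares was 1.09, with an interval of 0.734 to 1.63, so a difference was not detectable at this number of cells. Type 2 dendritic cells, taken by at least 2 UMIs of the lectin Cd209a with the same exclusions and fewer than 3 rule UMIs, made up 2.13% (25 cells) and 0.512% (17 cells). Type 1 dendritic cells, taken by at least 2 UMIs of Xcr1 and Clec9a, numbered 9 and 10 and are used for levels only. Without members carrying 2 or more UMIs of other lineages, 18 and 36 members were left and the ratio of shares was 0.707.

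The matrices held 5203415 UMIs in control and 13717817 in anti-PD-1. Control members had 160739 UMIs in all, with a median of 4998 per cell (1054 to 10985) and of 1507 genes, and anti-PD-1 members had 433557, with a median of 4261.5 (1084 to 11799) and of 1460.5 genes. Type 2 cells had 166334 and 78598 UMIs in all. The share of UMIs in cells that free RNA could account for, read from macrophage genes in T cells, was 1.52% in control and 4.67% in anti-PD-1. Those genes include C1q genes, which the choice of these T cells held below 3 UMIs per cell, so the shares can be too low. The libraries had 4 cell barcodes in common, and none of them belonged to a member. Doublets were not called, so a member can hold the RNA of more than 1 cell.

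The markers went with the label. Il4i1, an amino acid oxidase, and Cacnb3, a calcium channel subunit, were the 2 markers the rule did not use. Il4i1 had 79 UMIs in 21 of 31 control members and 299 UMIs in 63 of 96 anti-PD-1 members. It was also found in type 2 cells, at 96.2 and 318 CPM against 491 and 690 CPM in members. Cacnb3 had 76 UMIs in 22 and 196 UMIs in 63, and no type 2 cell of either library held a Cacnb3 UMI. In T cells (among those with at least 2 UMIs of Cd3d, Cd3e and Cd3g) of median depth 2892 and 2682 UMIs, taken as the background, Cacnb3 was present in 0 of 326 and 4 of 1633 cells. Of a list of 7 genes shared by dendritic cells, Batf3 (39 and 123 UMIs), a factor of the lineage, and Flt3 (13 and 44), its growth factor receptor, were present. The others were Dpp4 (10 and 17), Zbtb46 (8 and 21), Bcl11a (3 and 3), Itgax (1 and 9) and Kmo (0 and 14). Kmo was at 0 and 32.3 CPM against 108 and 89.1 in type 2 cells, and Bcl11a at 18.7 and 6.92 against 120 and 63.6. The summed list was at 460 and 533 CPM against 445 and 382. Cd209a had 1 and 6 UMIs in members, Clec10a 0 and 5, Xcr1 1 and 0, and Clec9a 0 and 1, so these 4 surface markers of type 2 and type 1 cells were near 0. Other genes of the same marker lists were not: of the type 2 list Ifi30 was at 691 and 745 CPM and Tnip3 at 411 and 270 CPM, and of the type 1 list Irf8 was at 1145 and 2313 CPM and Batf3 at 243 and 284 CPM.

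Markers of other lineages were present in part of the members. Counted over the NK-cell, B-cell, plasmacytoid, neutrophil and T-cell lists, 13 of 31 control and 60 of 96 anti-PD-1 members had 2 or more UMIs. So did 13 of 25 control and 11 of 17 anti-PD-1 type 2 cells, so this was not particular to members. Monocyte and macrophage genes are not part of that count. The monocyte list had 85 UMIs in 19 control members and 375 in 48 anti-PD-1 members, of which Plac8, a gene also found in other leukocytes, gave 78 and 326. Mast cell or basophil genes had no UMI in either library, and the plasmacytoid marker Siglech had none. The NK-cell granzyme Gzma had 49 and 120 UMIs, and 3 control and 2 anti-PD-1 members had 5 or more of them, of which 3 and 1 were members by a single rule gene. At least 2 UMIs of Cd79a, Cd79b and Ms4a1, genes of B cells, were found in 1 and 3 members. The neutrophil list had 0 UMIs in control members and 123 in anti-PD-1 members (S100a8 49, S100a9 49, Retnlg 23, and 2 of 6 genes at 0, Csf3r among them), and 43 of 96 anti-PD-1 members held a UMI of S100a8 or S100a9. Ratios without those 43 cells are given beside many of the results between the libraries, and the part of these other markers in the results was not tested.

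Against type 2 dendritic cells, the members had higher levels of many genes of migration and co-stimulation and of 4 checkpoint genes, and lower levels of uptake genes. Levels are UMIs summed over cells and scaled to a total of 1000000 (CPM), and a gene needed 20 UMIs in the higher population of each library. Of 1035 genes measured, 191 (18.5%) were at least 2-fold higher in members in both libraries and 137 (13.2%) at least 2-fold lower. The median gene differed by 0.012 on the log2 scale in control and by 0.17 in anti-PD-1. These contrasts were used in choosing the members, and nothing is tested with them.

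The migration and cytoskeleton list had 11 of 14 measured genes higher in both libraries and none lower, with medians of 2.96 and 2.92 (log2, control and anti-PD-1). Ccr7 itself (chromosome 11, 99144196 to 99155077, minus strand, GRCm38) had 407 UMIs in 30 of 31 control members and 1542 in 90 of 96 anti-PD-1 members, against 0 and 1 UMI in type 2 cells. Fscn1 (chromosome 5, 142960343 to 142973185, plus strand) was at 1972 CPM (1761 to 2202) and 2971 CPM (2811 to 3138), with no UMI in type 2 cells. Cd63, a tetraspanin of endosomes, had 179 UMIs in members against 2 in type 2 cells in control (log2 6.53, 4.66 to 9.59) and 462 against 1 in anti-PD-1 (6.39, 3.90 to 11.7). Tmem123, a membrane mucin, was higher by 3.89 and 4.14, and Samsn1, an adaptor, by 2.94 and 3.37. Fabp5, a fatty acid binding protein, was at 3515 CPM in control members and 1792 in anti-PD-1 members, against 66.1 and 127 in type 2 cells. Tbc1d4, a Rab GTPase activator, had 141 UMIs against 1 (7.19, 4.69 to 12.5) and 314 against 3 (4.25, 2.69 to 6.53).

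Chemokines split. Ccl5, a chemokine that draws T cells and NK cells, ranked first among the measured genes outside the rules, with 1825 UMIs in 25 of 31 control members against 3 in type 2 cells and 7091 in 94 of 96 anti-PD-1 members against 12. Its log2 ratios were 9.30 (7.75 to 11.6) and 6.74 (5.94 to 7.70), and type 1 cells held 1 and 17 UMIs. T cells also carry Ccl5, in 67.8% of control and 84.9% of anti-PD-1 T cells, so the gene was high in members and not confined to them. Cxcl16, a membrane-bound ligand of CXCR6, was higher by 3.68 (2.89 to 4.58) and 2.61 (1.97 to 3.33). Ccl22 (chromosome 8, 94745590 to 94751699, plus strand), a gene of the rule, had 157 UMIs against 2 in control (6.34, 4.47 to 9.40) and 965 against 0 in anti-PD-1. Of all Ccl22 UMIs in kept cells, members held 87.7% in control and 91.5% in anti-PD-1. Ccl17, the other ligand of CCR4, went opposite ways, at 1.03 (0.59 to 1.48) in the control library but -1.501 (-1.80 to -1.19) after anti-PD-1. Ccl9 was lower in members by 3.83 in each library, and Ccl4 had 1 UMI against 164 (-7.31, -12.6 to -4.81) and 73 against 34 (-1.36, -1.97 to -0.73). In all, 2 of 7 measured chemokines were higher in both libraries and 3 lower, with medians of -0.19 and -1.501. The sign of the list's median depended on which genes were measured: with a minimum of 50 UMIs it was 2.35 and 0.55.

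Genes of maturation and co-stimulation were mostly higher in members, 7 of 11 measured in both libraries and 1 lower, with medians of 3.22 and 2.22. The size of these medians depended on depth and on which genes were measured: they were 0.41 and 0.21 with cells thinned to 1000 UMIs, and 1.79 and 1.62 with no gene minimum. Relb, an NF-kB subunit needed for dendritic cell maturation, had 118 UMIs against 7 in control (4.12, 3.04 to 5.47) and 242 against 2 in anti-PD-1 (4.46, 2.59 to 7.51). Il12b, a subunit of interleukins 12 and 23, had 94 and 131 UMIs in members and none in type 2 cells. With 3 UMIs put in for the summed type 2 cells, its log2 ratios were 5.02 and 2.98. Il12b was not shared by all members: 8 of 31 control and 26 of 96 anti-PD-1 members held a UMI, and 1 control cell held 29 of the 94. Cd40, the receptor of the T-cell help signal, was at 230 CPM (162 to 317) in control members, while anti-PD-1 members were at 646 CPM (572 to 726), against 60.1 and 127 in type 2 cells (1.94 and 2.34). Il15ra, which presents interleukin 15 to neighbouring cells, had 34 UMIs against 1 and 136 against 1. Tnfrsf4 (OX40) and Tnfrsf9 (4-1BB), better known on T cells, had 27 UMIs against 1 and 40 against 4 in control, and 38 against 0 and 78 against 1 in anti-PD-1. Cd48, a ligand of CD2 family receptors, was the list's lower gene, by 2.61 and 2.42. The co-stimulatory ligand Cd86 was at 1.19 (0.47 to 1.95) in control, whereas the anti-PD-1 value was -0.08 (-0.63 to 0.50).

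Among checkpoint ligands and regulators, 4 of 4 measured genes were higher in both libraries, with medians of 3.61 and 2.45. With no gene minimum, which admits the rest of the list, the medians were 0.54 and 0.56. Cd200, a ligand of an inhibitory receptor, had 57 UMIs in 15 control members and none in type 2 cells (4.30 with 3 UMIs put in). In anti-PD-1 it had 210 in 67 members against 2 (4.25, 2.38 to 7.31). Socs2, a feedback inhibitor of cytokine signalling, had 85 UMIs against 3 (4.87, 3.28 to 7.18) and 258 against 0 (3.96 with 3 UMIs put in). Il4i1 was higher by 2.35 (1.57 to 3.23) and 1.12 (0.53 to 1.77). Pdcd1lg2, which encodes PD-L2, had 22 UMIs against 2 in control (3.51, 1.48 to 6.64) and 52 against 4 in anti-PD-1 (1.24, -0.21 to 3.17), and the latter interval reached 0. Cd274, which encodes PD-L1 (chromosome 19, 29367455 to 29388095, plus strand), missed the minimum in control. It had 14 UMIs in 10 control members against 2 in type 2 cells, and 101 in 52 anti-PD-1 members against 5 (1.87, 0.60 to 3.53).

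**Figure D1:**
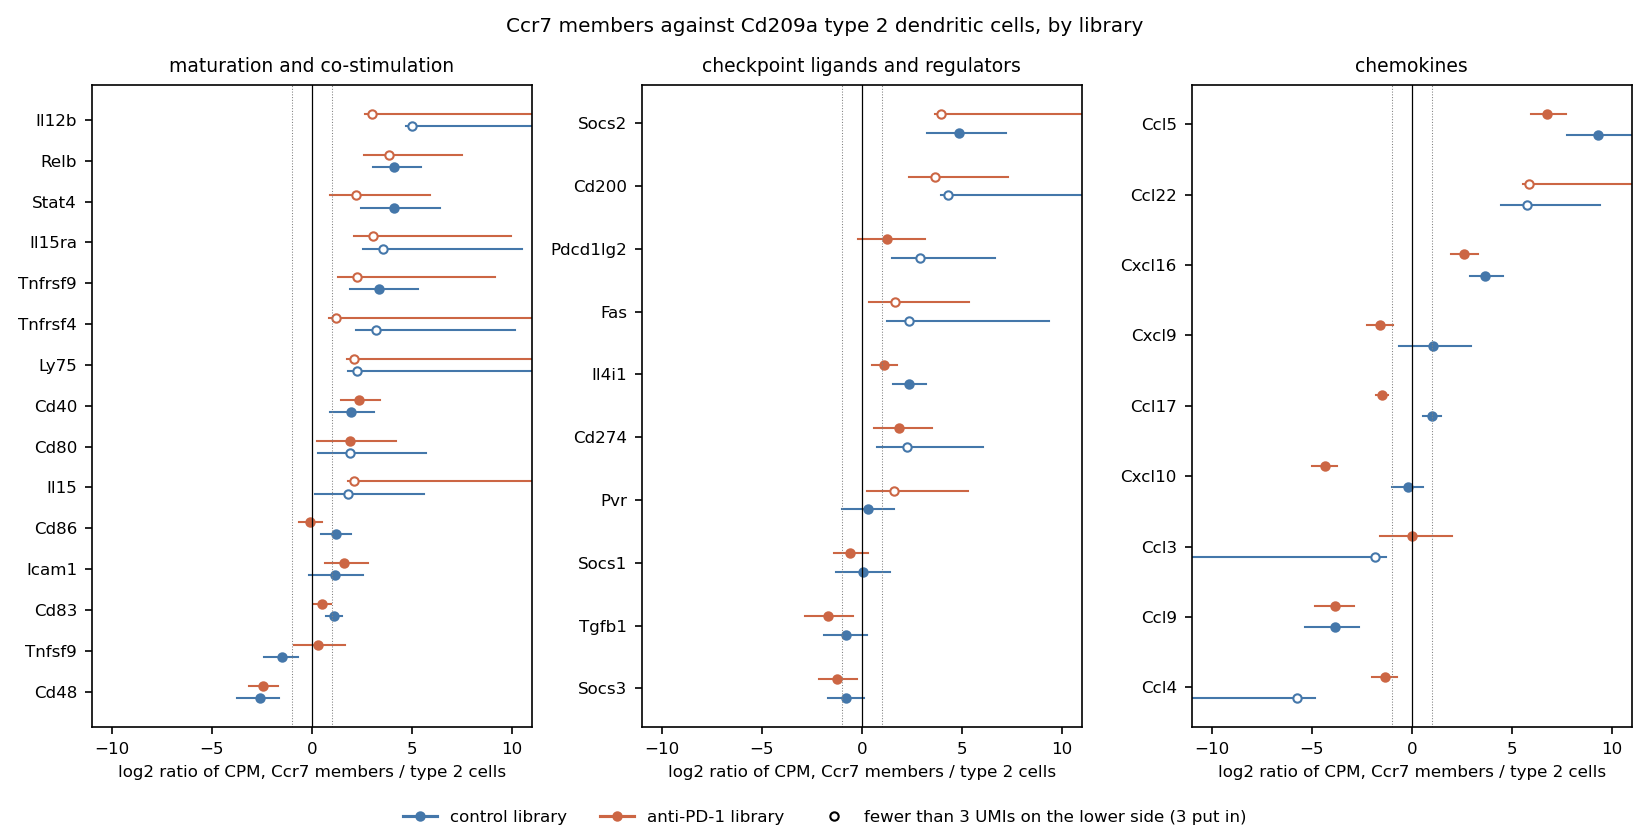
Log2 ratio of summed CPM in Ccr7 members over Cd209a type 2 dendritic cells (x axis) for genes of 3 lists (y axis) with 20 UMIs in members and 10 UMIs in the higher population of each library, control in blue and anti-PD-1 in orange, with 95% counting intervals and dotted lines at 2-fold. Open points had fewer than 3 UMIs on the lower side and are drawn with 3 put in, and a line that reaches the edge has no upper or lower limit within the axis. Ccl5 lies at 9.30 and 6.74, Il12b and Cd200 have open points, and Cd48, Ccl9 and Ccl4 lie below 0 in both libraries.

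NF-kB subunits and feedback genes had 6 of 13 measured genes higher in both libraries and none lower, with medians of 1.61 and 1.44. Traf1, a signal adaptor of TNF receptors, was at 1008 and 1391 CPM in members against 331 and 242 in type 2 cells. Birc2, a ubiquitin ligase of that pathway, was higher by 3.12 and 3.15, and Nfkbib, an inhibitor of NF-kB, by 2.34 and 2.82. Rel, an NF-kB subunit, was higher by 1.57 and 1.23. Relb belongs to this list as well as to that of maturation.

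The promoters of these genes were searched for the kappaB motif, the sequence that NF-kB dimers bind, as an exact match to its 10-base consensus with ambiguity codes on both strands, from 250 bases before to 50 bases after the start of transcription (RefSeq, GRCm38.p6). Of all 27025 genes with a promoter in that table, 5.14% had a match. Among the 15 genes highest over type 2 cells, 9 had a promoter in the table and 1, Ramp3, had a match. Of the 6 NF-kB list genes that were higher in both libraries, 5 had a promoter and 1, Rel, had a match, and of the 7 maturation genes 5 had one and 1, Tnfrsf9, had a match. Of the 15 lowest genes, 12 had a promoter and 1, Ccl9, had a match. The 3 sequences are shown so that the match can be seen in genes with high levels in members. They run 5′ to 3′ on the gene's strand, capitals mark the kappaB matches, and overlapping matches run together. Ramp3 (chr11:6658283-6658582, plus strand) encodes a receptor activity modifying protein, and its match starts 51 bases before the start of transcription.
Ramp3: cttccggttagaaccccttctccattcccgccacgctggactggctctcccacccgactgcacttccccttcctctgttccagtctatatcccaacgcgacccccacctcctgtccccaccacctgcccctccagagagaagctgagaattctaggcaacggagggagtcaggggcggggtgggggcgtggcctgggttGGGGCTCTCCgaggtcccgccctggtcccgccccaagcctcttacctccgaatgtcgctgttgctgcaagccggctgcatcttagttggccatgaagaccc
Tnfrsf9 (chr4:150927749-150928048, plus strand): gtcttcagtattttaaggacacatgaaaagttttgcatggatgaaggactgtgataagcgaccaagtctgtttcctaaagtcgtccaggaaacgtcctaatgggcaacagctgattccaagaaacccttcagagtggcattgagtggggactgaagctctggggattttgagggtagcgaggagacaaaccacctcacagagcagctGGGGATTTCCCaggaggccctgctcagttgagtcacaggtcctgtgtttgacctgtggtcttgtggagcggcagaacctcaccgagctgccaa
Rel (chr11:23770920-23771219, minus strand): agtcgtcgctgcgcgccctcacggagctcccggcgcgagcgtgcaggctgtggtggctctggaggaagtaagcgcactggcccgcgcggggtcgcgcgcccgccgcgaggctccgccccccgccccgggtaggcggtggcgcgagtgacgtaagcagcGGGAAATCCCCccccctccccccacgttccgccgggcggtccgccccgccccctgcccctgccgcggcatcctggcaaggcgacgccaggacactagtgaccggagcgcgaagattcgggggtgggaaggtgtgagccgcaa
A match describes these letters only and is no evidence of binding in these cells.

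Transcription factors of dendritic cells had 5 of 10 measured genes higher in both libraries and 1 lower, with medians of 1.64 and 1.19. Irf8, a factor that type 1 and plasmacytoid dendritic cells need, was at 1145 CPM (985 to 1323) and 2313 CPM (2172 to 2461) in members. Type 2 cells were at 174 and 331 CPM, and type 1 cells at 2355 and 2399 CPM. Id2, an inhibitor of E proteins, was higher than in type 2 cells by 2.54 and 2.78, Batf3 by 1.53 and 2.48, Etv3 by 2.03 and 1.51, and Stat3 by 2.20 and 1.48. Irf7, an inducer of type I interferon, was the lower gene (-1.58 and -1.02).

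The 2 classes of MHC, which present antigen to CD4 and CD8 T cells, differed in sign. MHC class II presentation had 0 of 11 measured genes higher and 6 lower in both libraries, with medians of -1.18 and -1.28. H2-Ab1, the class II beta chain, was at 2041 CPM (1826 to 2274) and 2982 CPM (2822 to 3149), against 12126 and 12240 CPM in type 2 cells. H2-DMb1, a subunit of the peptide-loading chaperone, had 4 UMIs against 274 (-6.05) and 70 against 117 (-3.20). MHC class I presentation had 4 of 15 higher and 1 lower, with medians of 0.62 and 0.57. B2m, the class I light chain, was higher by 1.12 and 1.003, and H2-Q7 by 2.35 and 1.27. H2-Q6 and H2-Q7 are nearly identical, so their separate values are uncertain. Pattern recognition and uptake had 0 of 4 measured genes higher and 4 lower: Fcer1g (-2.21 and -2.37) and Tyrobp (-1.32 and -1.63), signalling adaptors of myeloid receptors, and the lectins Mgl2 (-5.22 and -3.73) and Clec10a. Clec10a had 0 UMIs in control members against 98 in type 2 cells, and 5 against 42 in anti-PD-1 (-5.53, -7.23 to -4.20).

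Among the 15 genes highest over type 2 cells in both libraries were also Serpinb6b (180 and 602 UMIs against 0 and 0), a protease inhibitor with close paralogues, Bcl2a1a and Bcl2a1b, survival factors that are near copies of each other, Ramp3, Anxa3, Ktn1 and Zmynd15. Among the 15 lowest were Lyz2, which encodes lysozyme (-6.13, -7.45 to -5.08, and -4.75, -5.27 to -4.27), Ccl6, Ms4a6c, Alox5ap and Plbd1. Cd7 was lower as well, with 1 and 0 UMIs in members, and Cd209d had 0 and 1, but the latter is a close relative of the gene that chose the type 2 cells. The remaining lists had few genes past 2-fold in both libraries. The interferon response had 0 of 11 higher and 3 lower, hypoxia and glycolysis 0 of 10 and 3, dissociation and immediate early genes 1 of 13 and 5, and cytokines and their receptors 1 of 4 and 1. Cell cycle genes had 2 measured and 0 past 2-fold, though 7 of 25 control type 2 cells and 0 of 17 anti-PD-1 type 2 cells held 10 or more cell cycle UMIs, against 5 and 13 members.

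Some transcripts lay mostly in the members. Il12b had 90.4% of its UMIs in control cells and 88.5% of those in anti-PD-1 cells in members. The corresponding shares were 78.4% and 81.0% for Cacnb3 and 80.6% and 85.6% for Nudt17, a nudix hydrolase. Strip2, a scaffold of a phosphatase complex, had 19 of its 19 control UMIs and 97.1% of its anti-PD-1 UMIs there, and Clu (clusterin) 11 of 11 and 93.2%. Members were 2.64% and 2.89% of cells. The genes Tmem150c, Slc27a3, Scin, Synpo2 and Cd70 completed the 10 with the largest such shares, with 72.7% to 100% of the control UMIs and 75.7% to 90.2% of the anti-PD-1 UMIs.

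The members varied among themselves. The cells above the 75th percentile of the MHC class II share of UMIs, at 2.03%, were 10 control and 22 anti-PD-1 cells, and 9 members lay within 10% of that value. That set was drawn after the values had been seen, so its contrasts are descriptions. In anti-PD-1 the set had more Ifitm3 (388 UMIs against 118 in the rest, log2 3.33, 3.03 to 3.64), Ly6a (129 against 46, 3.10), Plac8 (237 against 89, 3.02), Il1b (413 against 195, 2.69) and Ccl17 (167 against 102, 2.32). Of the 167 Ccl17 UMIs, 1 cell held 91 and another 50, and only 9 of the 22 cells held any. The set had less Fscn1 (-1.56), Cacnb3 (-1.88), Il15ra (-2.21) and Ccl5 (-0.73), while Ccr7 was alike (-0.03, -0.20 to 0.14). In control the set likewise had less Fscn1 (-0.57), Cacnb3 (-1.35), Il15ra (-1.61) and Ccl5 (-0.92), and more Plac8 (1.30, 0.62 to 1.99). There Ccl17 (0.47), Ifitm3 (0.60) and Il1b (0.28) differed by under 2-fold, and Ly6a had 2 UMIs on either side. Type 2 marker UMIs (Cd209a, Clec10a or Mgl2) were found in 13 of 127 members, and 4 had 2 or more.

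Il12b and Apol7c were each found in part of the members. Apol7c, a member of the apolipoprotein L family known in dendritic cells, had a UMI in 4 control and 29 anti-PD-1 members, Il12b in 8 and 26, and both in 6 over the 2 libraries, a number from which nothing is read. Anti-PD-1 members with Il12b had a median of 5008.5 UMIs against 4065 in those without. For Apol7c the medians were 4741 and 3914, so both sets were the deeper ones. Of the 29 anti-PD-1 members with Apol7c, 22 also held an S100a8 or S100a9 UMI, so the 2 divisions overlap. Anti-PD-1 members with an Apol7c UMI held 639 of 965 Ccl22 UMIs (log2 1.77 over the rest, 1.58 to 1.97), 49 of 57 of Il27, 188 of 280 of Cd40, 77 of 98 of H2-M2 and 54 of 67 of Ptgs2, with 11 of 131 of Il12b (-2.65, -3.69 to -1.76).

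The second comparison set anti-PD-1 members beside control members. Members of the anti-PD-1 library had higher levels of Cd40, Icam1, Cd274, Il15, Irf8 and Ccl22 and much higher levels of Apol7c, Selm and Ly6a, while Mif, Areg, Hfe and Nr4a3 were lower. Without the 43 members that held S100a8 or S100a9 UMIs, Cd40, Icam1, Cd274, Il15, Irf8 and Ccl22 each differed from control by under 2-fold. Of these, Cd274 (log2 0.97), Il15 (0.75) and Irf8 (0.97) still lay above control. Of 2158 genes with 20 UMIs in the higher library, 356 (16.5%) were at least 2-fold higher in anti-PD-1 and 38 (1.76%) at least 2-fold lower. Because anti-PD-1 members hold more UMIs, that minimum admits weaker genes on their side. With the same CPM minimum in both libraries (124 CPM, chosen after seeing the data), 93 of 1169 (7.96%) were higher and 38 (3.25%) lower. The median of all genes was 0.32 with the first minimum and 0.045 with the second. Without the 43 anti-PD-1 members with an S100a8 or S100a9 UMI, 141 genes were higher and 36 lower, and without members with 2 UMIs of other lineages 64 and 30. The first setting leaves 210304 of the 433557 anti-PD-1 member UMIs, and the second 18 control and 36 anti-PD-1 members. The minimum of 20 UMIs is harder to reach in both, so smaller counts there are not read as fewer differences.

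Cd40 (chromosome 2, 165055627 to 165072948, plus strand) had 37 UMIs in 15 of 31 control members and 280 in 55 of 96 anti-PD-1 members, a log2 ratio of 1.49 (0.99 to 2.02). Per cell it ranged from 0 to 9.32 UMIs per 10000 in control with a median of 0, and from 0 to 38.9 with a median of 1.81 in anti-PD-1, so the cells overlapped widely. The 43 members with S100a8 or S100a9 UMIs held 233 of the 280 UMIs, and without them the ratio was -0.04. Icam1, an adhesion molecule for T-cell contact, had 17 and 153 UMIs (1.74, 1.01 to 2.56) and was at 0.23 without those cells. Il15 had 10 and 72 UMIs (1.42, 0.46 to 2.54), with 0.75 without them, and Cd70, a ligand of CD27, 5 and 38 (1.49, 0.15 to 3.20), with 1.20. Il12b went the other way, at 94 and 131 UMIs (-0.95, -1.35 to -0.55), but the share of cells with a UMI was 25.8% and 27.1%. In all, 5 of 17 measured maturation genes were higher and 0 lower, with a median of 0.29 beside 0.32 for all genes.

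Cd274 had 14 and 101 UMIs, a ratio of 1.42 (0.61 to 2.34), and was found in 32.3% of control members and 54.2% of anti-PD-1 members. T cells, as a background cell type that can itself carry PD-L1, had it in 13.5% and 8.57%. With each cell thinned to 1000 UMIs the shares of members were 19.4% (7.45 to 37.5) and 13.5% (7.41 to 22.04), and the ratio of levels was -0.05, so the higher Cd274 level was not seen at that depth. Without the S100a8 or S100a9 cells it was 0.97. Ebi3, the partner of Il27 in interleukin 27, had 5 and 62 UMIs (2.20, 0.90 to 3.87), with 0.99 without those cells, and Pdcd1lg2 22 and 52 (-0.19, -0.94 to 0.60). Checkpoint genes had 2 of 9 measured genes higher and 0 lower, with a median of 0.49. Pdcd1, which encodes the antibody's target PD-1, had 5 and 6 UMIs in members.

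Chemokines had 5 of 9 measured genes higher and 1 lower, with a median of 1.18, and of 0.33 without the S100a8 or S100a9 cells. Ccl22 is a gene of the rule and its level is a description: the control library had 977 CPM (830 to 1142), the anti-PD-1 library 2226 CPM (2088 to 2371). The 53 anti-PD-1 members without S100a8 or S100a9 UMIs were at 913 CPM of Ccl22, and the 43 with them at 3462 CPM. Its medians per cell were 6.76 and 7.42 UMIs per 10000, nearly alike, whereas the highest cells were at 74.5 and 197. Ccl5 was at 11354 and 16355 CPM (0.53, 0.45 to 0.60), with 25 of 31 and 94 of 96 cells positive and per-cell medians of 37.1 and 120.0 per 10000, and the ratio was 0.07 without the S100a8 or S100a9 cells. Ccl4, an inflammatory chemokine, had 1 UMI in control and 73 in 15 anti-PD-1 members (4.76, 2.23 to 10.1), of which 1 cell held 25. With 3 UMIs put in for control its ratio was 3.17. Cxcl1, a neutrophil attractant, had 0 and 44 UMIs, but 4 cells held them all. Cxcl10, a ligand of CXCR3, had 28 and 30 UMIs (-1.33), and all 28 of control lay in 1 cell, without which its ratio was 1.84 with 3 UMIs put in. Cxcl9, a ligand of the same receptor, had 10 and 61 UMIs (1.18, 0.20 to 2.31). The Cxcl9 ratio was 1.81 without the S100a8 or S100a9 cells, and -0.00651 with members chosen on Fscn1 and Ccl22 without Ccr7.

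**Figure D2:**
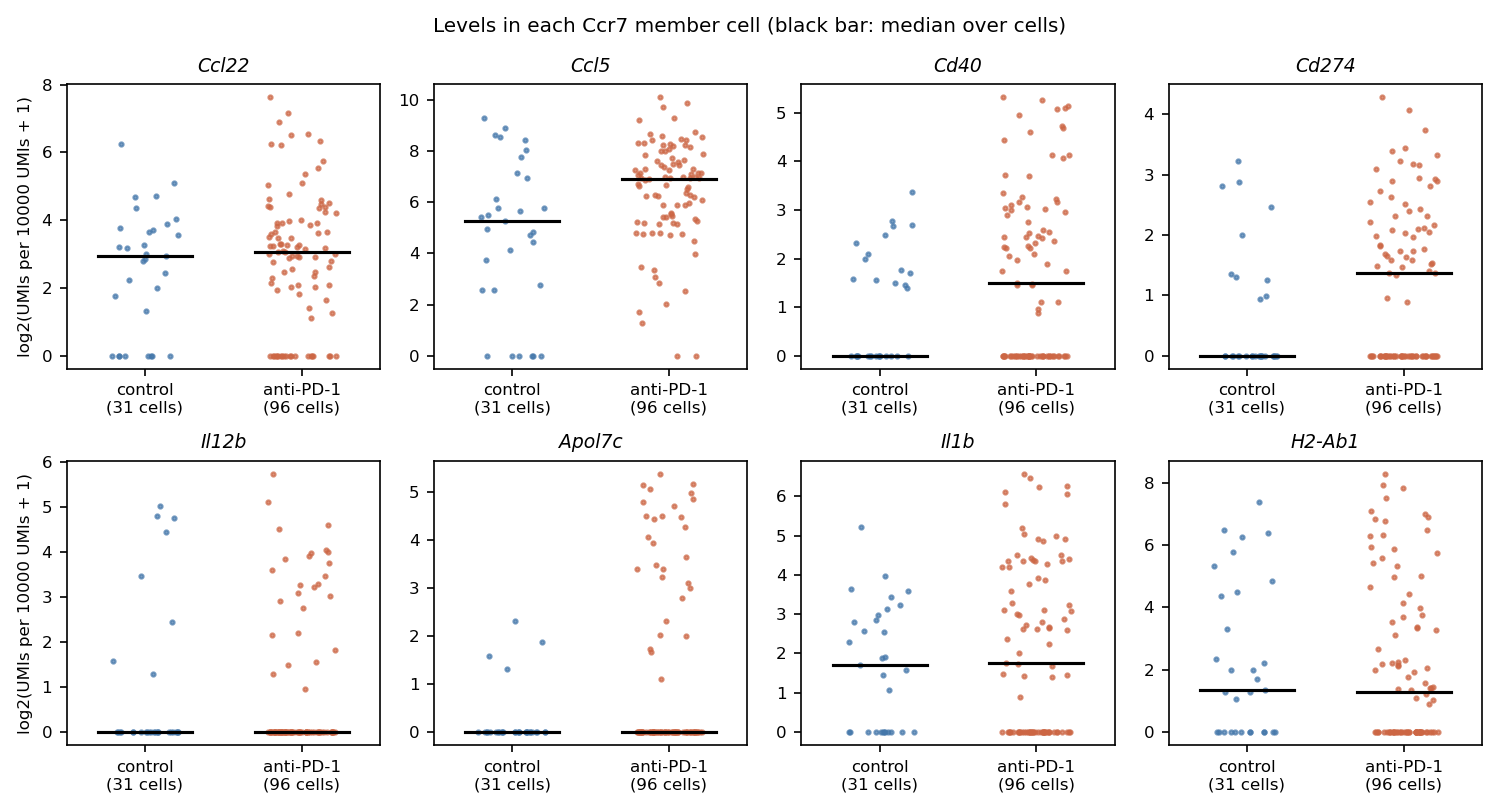
Level of 8 genes in every member, as log2 of UMIs per 10000 UMIs of the cell plus 1 (y axis), with 31 control cells in blue, 96 anti-PD-1 cells in orange and the median as a black bar. Cells of both libraries overlap for each gene, the upper range of Cd40 and Apol7c is filled by anti-PD-1 cells, and Il12b is at 0 in most cells of both.

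Irf8 had 184 UMIs in 22 of 31 control members and 1003 in 91 of 96 anti-PD-1 members, with a ratio of 1.02 (0.79 to 1.25) that lay between 0.89 and 1.07 under 18 alternatives. In type 2 cells the ratio was 0.92 (0.10 to 1.74), and in all other cells -0.17. Irf1, a factor induced by interferon gamma, had 23 and 175 UMIs (1.496, 0.86 to 2.19, and 0.73 without the S100a8 or S100a9 cells). The dendritic cell factors had 3 of 15 measured genes higher and 1 lower (Nr4a3, -1.68, -2.30 to -1.06). Interferon response genes had 11 of 23 measured genes higher and 1 lower, with a median of 0.91, beside 16.5% higher and a median of 0.32 for all genes. The summed list was at 4710 CPM in control and 6354 in anti-PD-1 members, and at 4485 and 9797 CPM in type 2 cells. The higher level in anti-PD-1 was thus not particular to members. Among the interferon genes Ifi47, an immunity-related GTPase, had 3 and 40 UMIs (2.31, 0.65 to 4.64), and Irf7 had 10 and 60 (1.15, 0.18 to 2.29). Isg15 had 52 and 191 (0.45, and 1.14 without the S100a8 or S100a9 cells). In cytokines and their receptors 3 of 15 were higher and 0 lower. Il1b (77 and 608 UMIs, 1.55, 1.21 to 1.91) lay mostly outside the S100a8 or S100a9 cells, which held 160 of the 608. Il27 had no UMI in control and 57 in 18 anti-PD-1 members (2.82 with 3 UMIs put in), of which those cells held 54.

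NF-kB genes had 5 of 20 higher and 0 lower, with a median of 0.45, MHC class II genes 4 of 14 and 0 (0.25), and MHC class I genes 1 of 18 and 0 (0.40). Without the S100a8 or S100a9 cells the medians of these lists were -0.03, 0.46 and 0.33. Within class II, Cd74, the invariant chain, was at -0.53 (-0.64 to -0.42), H2-Aa at -0.30, H2-Eb1 at -0.02 and H2-Ab1 at 0.55 (0.37 to 0.73, and 1.35 without the S100a8 or S100a9 cells), so the main genes differed in sign. H2-M2, a class I-like gene, had 7 and 98 UMIs (2.38, 1.28 to 3.73). Migration genes had 0 of 15 past 2-fold in either direction, with a median of -0.06. Fabp5 was nearest, at -0.97 (-1.13 to -0.81), and Cacnb3 was at -0.06 (-0.45 to 0.34).

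Ranked with 3 UMIs put in for lower counts, the highest ratios were those of Selm, a selenoprotein of the endoplasmic reticulum, Apol7c and Ly6a, a surface protein of the Ly6 family. Ccl4 was at 3.17 on that scale. Selm had 3 UMIs in 2 control members and 179 in 39 anti-PD-1 members (4.47, 2.90 to 6.76). Apol7c (chromosome 15, 77524852 to 77533316, minus strand) had 5 UMIs in 4 control members and 268 in 29 anti-PD-1 members (4.31, 3.07 to 5.95), and no type 2 or type 1 cell of either library held a UMI. Ly6a had 4 UMIs in 4 and 175 in 30 (4.02, 2.64 to 5.91), and was also higher in anti-PD-1 type 2 cells (1.22, 0.83 to 1.61). Under the 18 alternatives computed for them, the lowest ratios were 2.03 for Selm, 2.54 for Apol7c and 1.91 for Ly6a. Ptgs2, which encodes cyclooxygenase 2, had 3 UMIs in 1 control member and 67 in 17 anti-PD-1 members (3.05, 1.44 to 5.36) but was at -0.21 without members with UMIs of other lineages. Synpo2, Cd82, H2-DMb1, Rcsd1, S100a8 and S100a9 also stood among the 12 highest.

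Among the lowest, Mif, a cytokine of macrophages and T cells, had 103 UMIs in 21 control members and 75 in 39 anti-PD-1 members (-1.89, -2.34 to -1.45), and lay between -2.19 and -1.36 under the alternatives. In type 2 cells Mif was at -0.17 (-0.78 to 0.40). Hfe, an iron regulator, had 37 and 25 UMIs (-2.00, -2.79 to -1.23, and -1.07 without the S100a8 or S100a9 cells). Areg, an epidermal growth factor receptor ligand, had 25 and 9 UMIs (-2.91, -4.19 to -1.76), with 15 of the 25 in 1 cell. Nr4a1 (21 and 18), Klrd1 (40 and 36, with 19 in 1 control cell), Prnp, Timd4, Eps15, Gpcpd1 and Gyg were the others, and Nr4a1 and Prnp turned to 0.28 and 0.25 without members with UMIs of other lineages.

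**Figure D3:**
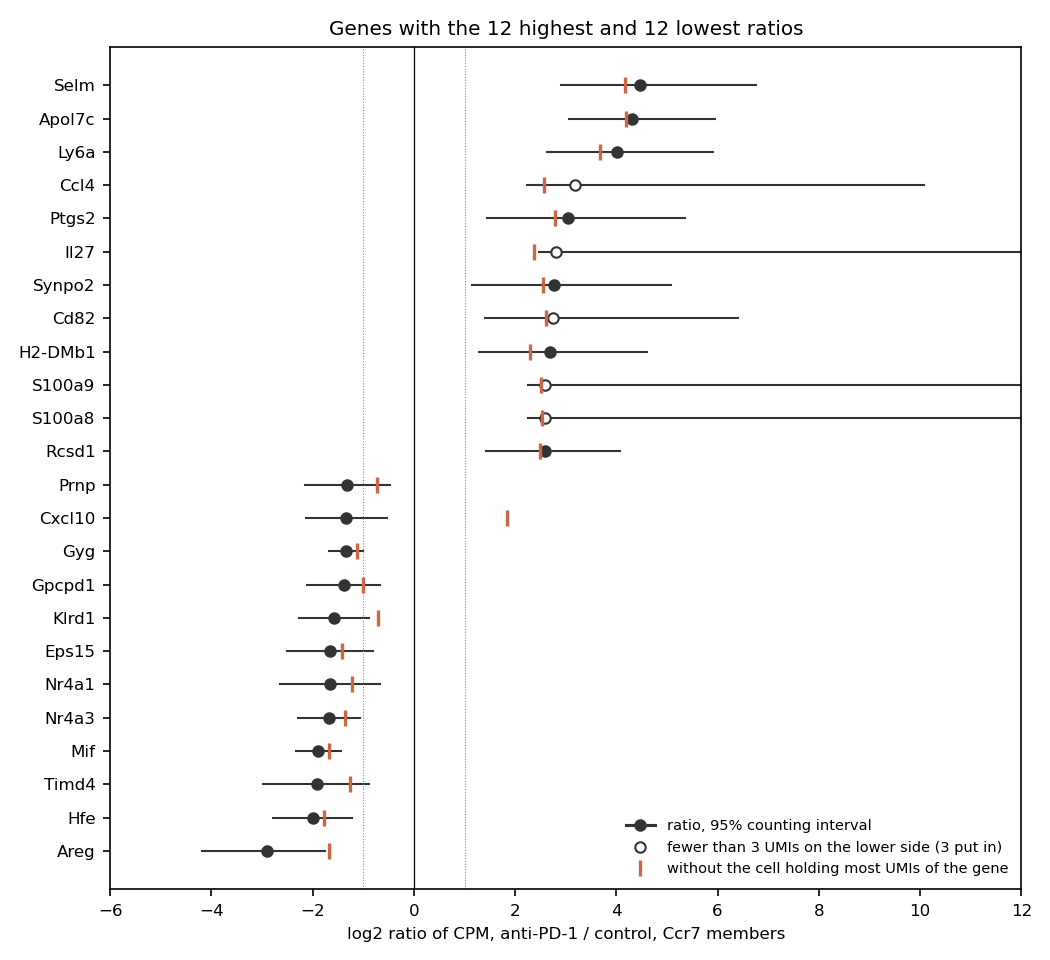
Log2 ratio of summed CPM in anti-PD-1 over control members (x axis) for the 12 highest and 12 lowest genes (y axis), with 95% counting intervals, open points where the lower side had fewer than 3 UMIs (3 put in) and dotted lines at 2-fold. The orange mark is the ratio without the cell that held most UMIs of the gene. Selm, Apol7c and Ly6a keep values above 3 without that cell, and the Cxcl10 mark lies on the other side of 0.

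The anti-PD-1 members with and without S100a8 or S100a9 UMIs, a division made after the values had been seen, differed in many of these genes. The 43 with an S100a8 or S100a9 UMI had a median of 5042 UMIs and the other 53 of 3427. The 43 held 925 of 1288 Fscn1 UMIs (log2 1.26 over the other 53, 1.09 to 1.44), 773 of 965 of Ccl22 (1.92, 1.69 to 2.16), 127 of 153 of Icam1 (2.20), 226 of 268 of Apol7c (2.34), 150 of 179 of Selm (2.28), and 43 of 44 of Cxcl1. The other 53 held 165 of 175 Ly6a UMIs (-4.13, -5.22 to -3.22), 469 of 506 of Ifitm3 (-3.75), 304 of 326 of Plac8 (-3.87), 70 of 73 of Ccl4 (-4.63), 86 of 88 of Ms4a4c (-5.51) and 1096 of 1293 of H2-Ab1 (-2.56). Ccr7 differed little (0.17, 0.02 to 0.31), and so did Relb, Cd83 and Cd200. No control member held an S100a8 or S100a9 UMI, and the 53 were close to control members in Cd40 (-0.04) and Ccl5 (0.07) but not in Apol7c (2.68), Selm (2.89) or Ly6a (4.98).

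In anti-PD-1 T cells 16.7% carried an S100a8 or S100a9 UMI, at a median of 4051.5 UMIs against 2550 in those without, and 2.45% of control T cells did. With cells thinned to 1000 UMIs, S100a8 was found in 13.5% (7.41 to 22.04) of anti-PD-1 members and 4.04% (3.14 to 5.11) of anti-PD-1 T cells, so the share in members was above that in T cells at equal depth. Barcodes with 10 to 50 UMIs, which hold free RNA, were at 5094 CPM of S100a8 in anti-PD-1 and 342 in control. Among genes of free RNA, Lyz2 was at 125 CPM in the 43 members and 66.6 in the 53, and Retnlg had 21 and 2 UMIs. C1q genes had 4 UMIs in the 43 (17.9 CPM) and 7 in the 53 (33.3 CPM). The member rule held C1q below 3 UMIs per cell, so no direction is read from those genes. Among type 2 cells 0 of 17 in anti-PD-1 held an S100a8 UMI. The part of free RNA, of attached or mixed cells and of depth in these differences was not tested.

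**Figure D4:**
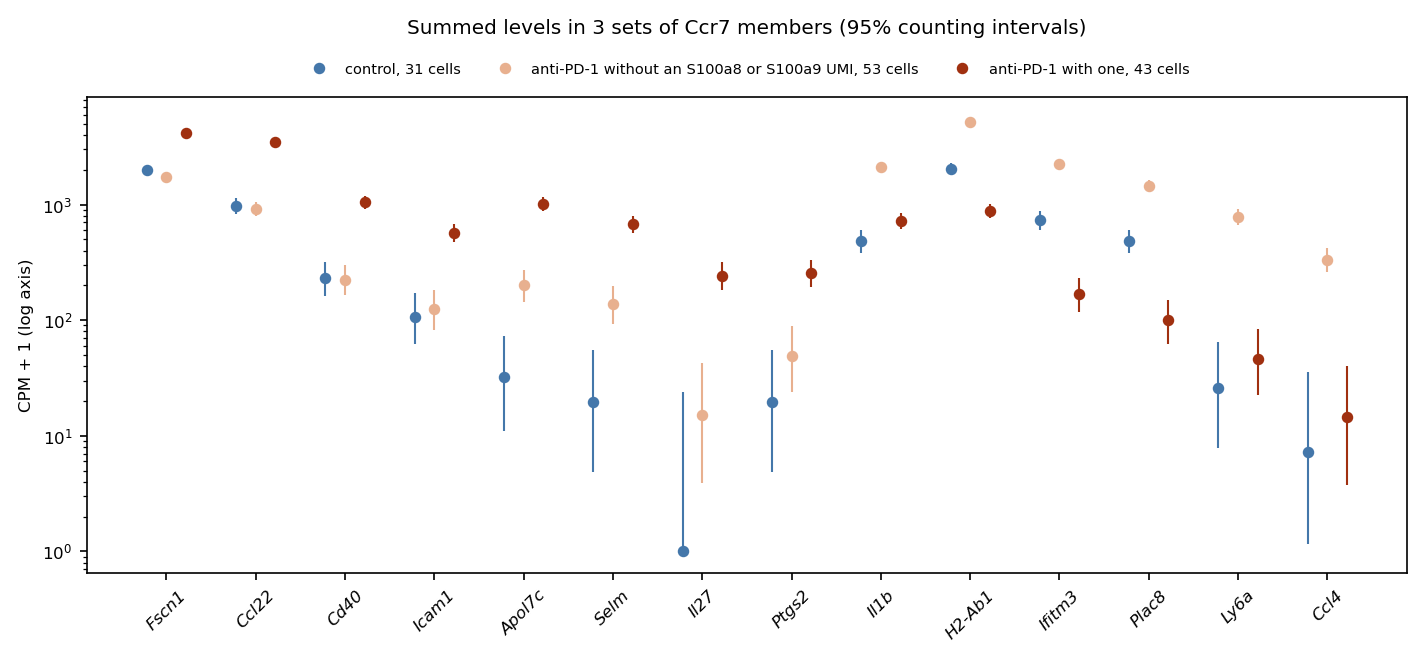
Summed level of 14 genes (x axis) as CPM plus 1 on a log axis (y axis) in control members (blue), anti-PD-1 members without an S100a8 or S100a9 UMI (light orange) and those with one (dark red), with 95% counting intervals. From Fscn1 to Ptgs2 the dark red points are highest, and from Il1b to Ccl4 the light orange ones are.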

How the data were processed

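Single cells were measured in 2 libraries, 1 control and 1 anti-PD-1. Per the submitters' processing notes, Cell Ranger 2.1 and the mouse build mm10 were used, and the deposited matrices hold raw UMI counts of 27998 genes for 737280 barcodes. From these counts, barcodes with at least 1000 UMIs and at most 10% mitochondrial UMIs were kept. No clustering was run and doublets were not called. For each population the UMIs of its cells were added and scaled to a total of 1000000, with exact Poisson, conditional binomial and Clopper-Pearson intervals at 95%, which cover counting error only. Ratios needed 20 UMIs on the higher side, and 3 UMIs over the summed cells were put in for lower counts when genes were ranked or counted. Genes were called at 2-fold. Thinning drew 1000 UMIs per cell (seed 11), and barcodes of 10 to 50 UMIs gave the free RNA. The share of free RNA was read from Lyz2, Ms4a7, Apoe and the C1q genes in 351 control and 1739 anti-PD-1 T cells. These had at least 2 Cd3 UMIs and fewer than 3 C1q UMIs. The T cells used as a background elsewhere were a smaller set of 326 and 1633.

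Named genes were the 15 highest and 15 lowest over type 2 cells, the 12 highest and 12 lowest between the libraries, members of 16 gene lists with the most UMIs, all maturation, checkpoint and chemokine genes with 20 UMIs, the markers, the 10 genes most concentrated in members, Pdcd1 and Arg1. Genes compared within divisions of the members were chosen after their values were seen. The members, the 16 lists and the 13 marker lists were chosen with earlier results of these data known. With 1 library per treatment there was no test and no p-value. Python 3.11.15, numpy 2.4.6, scipy 1.17.1, pandas 2.3.3 and matplotlib 3.10.9 were used, with TMM factors from edgeR 4.0.16 as an alternative scaling. Gene positions are from GENCODE on GRCm38 and promoters from RefSeq on GRCm38.p6.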

Additional observations from a re-analysis of the deposited data

Results flagged for a closer look

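For 3 chemokines the anti-PD-1 over control ratio lay on opposite sides of 0 in members and in type 2 dendritic cells, and the difference between the cell types was not tested. Ccl17 was at -0.36 (log2, -0.67 to -0.04) in members and 2.17 (1.73 to 2.62) in type 2 cells. In members its sign was not stable, at 0.09 without the S100a8 or S100a9 cells and between -0.89 and 0.10 under 18 alternatives. Of its UMIs in members, 1 cell held 41 of 128 in control and 1 cell 91 of 269 in anti-PD-1. Ccl4 was at 3.17 in members with 3 UMIs put in for the 1 UMI of control, and at -1.19 (-1.77 to -0.65) in type 2 cells. Cxcl10 was at -1.33 in members, where 1 control cell held all 28 UMIs, and at 2.81 (2.23 to 3.41) in type 2 cells.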

How the results depend on the processing

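No paired analysis was possible because each treatment had 1 library, and for the same reason no library could be left out. Type 2 cells were few (25 and 17), so ratios to them rest on few cells, and the depth of 160739 UMIs in control members limits genes under about 20 UMIs there. List medians are log2 values, and the cause of each change was not tested. Settings that remove cells or UMIs make the gene minimum harder to reach, so smaller gene counts under them are not read as fewer differences. Requiring 5 rule UMIs put the chemokine median over type 2 cells in anti-PD-1 at -2.18. A rule on Fscn1 and Ccl22 without Ccr7 put it in control at 0.57 and Cxcl9 between the libraries at -0.00651. Requiring 2 of the 3 genes gave -2.33 in anti-PD-1 and 0.56 between the libraries. Leaving out cells with 2 UMIs of other lineages removed type 2 cells as well as members. It left 18 control and 36 anti-PD-1 members and 12 and 6 type 2 cells. The ratio of shares was then 0.707 and 64 genes were higher in anti-PD-1. Over the few type 2 cells left, 122 genes were higher and 35 lower, and the maturation median in anti-PD-1 was 1.42. The chemokine medians were 3.56 (control), -2.10 (anti-PD-1) and 0.13 (between libraries), and the cell cycle median in control was 0.54. Lyz2 (-0.0159), Nr4a1 (0.28), Nudt17 (-0.0830), Prnp (0.25) and Ptgs2 (-0.21) changed sign between the libraries. Thinned to 1000 UMIs, 75 genes were higher and 10 lower between the libraries and 40 higher and 24 lower over type 2 cells, the maturation medians were 0.41 and 0.21, the chemokine medians 3.01, 2.04 and 0.48 between libraries, and Cd274 and Lyz2 were each at -0.0458. TMM scaling moved the ratios between libraries by -0.13 and gave 58 lower genes. With no gene minimum, 595 genes were lower between the libraries and 541 lower over type 2 cells, the maturation medians were 1.79 and 1.62, checkpoint 0.54 and 0.56, chemokines -1.39 in control and 0.00 between libraries, and transcription factors -0.25 and -0.26. With a minimum of 50 UMIs, 101 were higher and 10 lower between the libraries and 81 higher and 42 lower over type 2 cells, with maturation medians of 4.12 and 2.98, checkpoint 4.30 and 3.67, and chemokines 2.35, 0.55 and 0.53 between libraries. Subtracting free RNA put the chemokine median between libraries at 0.57. Type 2 cells taken by 1 Cd209a UMI and 10 MHC class II UMIs gave chemokine medians of -1.47 and -3.48. The following were chosen after seeing the data. Without members with S100a8 or S100a9 UMIs 141 genes were higher, the chemokine median was 0.33 and Cd40 was at -0.0426. The equal CPM minimum gave 93 higher genes and a chemokine median of 0.53. Without type 2 cells carrying Siglech or cell cycle UMIs the checkpoint median in control was 2.97, the cell cycle median 1.61, and Ccl4 over type 2 cells in anti-PD-1 0.26. Without the cell holding most of its UMIs, Cxcl10 was at 1.84. Of the main values under alternatives 179 kept their direction and size, 47 moved and 2 reversed, and of single genes and other lists 5872, 555 and 15.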
